A study of Mus musculus with 19 samples.

Results

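The genes described are 8 immediate-early genes of mouse CD8 T lymphocytes: the zinc-finger factors Egr1, Egr2 and Egr3, the orphan nuclear receptors Nr4a1, Nr4a2 and Nr4a3, and the immediate-early response genes Ier2 and Ier3. They were chosen by symbol, and each was read by the only probe set that carries that symbol alone. They are 8 of the 19938 genes measured on 19 Affymetrix arrays, each hybridised from 0.125 µg of RNA of purified CD8 cells. Levels are the deposited log2 signals, on which a step of 1 is a 2-fold change, and signals of different genes were not set against each other.

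Of the arrays, 16 were labelled as TCRP1A cells, which are transgenic for 1 T-cell receptor, lack Rag-1 and are on a B10.D2 background. These were naive peripheral cells (n = 4, arrays 33 to 36), control effector cells activated with their antigen for 72 h (n = 4, arrays 1 to 4), and effector cells at 72 h that had been transduced with Stat5ca, an active form of Stat5 (n = 2, arrays 9 and 10, GFP+). Control effector cells were also moved into congenic hosts and taken back from spleen and lymph nodes on day 18 (array 30) and day 120 (array 32), and Stat5ca cells on day 20 (n = 4, arrays 11 to 14). The other 3 arrays held transferred Stat5ca cells of the T-BetKO genotype, recovered on day 14 (arrays 39 and 40) and day 54 (array 41). Their labels name strain C57BL/6 beside a B10.D2 background, and these cells had been activated with anti-CD3/CD28 antibodies in place of antigen and their labelling protocol is named differently. The series text calls these cells TCRP1A as well, but their genotype label does not name the T-cell receptor. Nothing in the labels tells whether replicate arrays were made from different mice or cultures, so a p-value here reflects array-to-array spread, which may be technical. The vector and promoter that drove Stat5ca were not given in the sources used here.

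Immediate-early genes are switched on within minutes of a stimulus by factors already present in the cell. In T cells Egr1 is read out mainly downstream of Ras, MAP kinases and the factors SRF and ELK. The NR4A genes respond to calcium and calcineurin, and to CREB, MEF2 and NFAT. EGR2 and EGR3 are known for restraining T-cell activation and for inducing negative regulators, and NR4A proteins for repressing effector genes and for their part in tolerance and exhaustion of CD8 cells. Nr4a1 is widely used as a marker of recent antigen-receptor signalling, IER2 is a nuclear protein of fast growth responses, and IER3 modulates survival.

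The 3 NR4A genes were each higher in transferred control and Stat5ca cells than in naive cells, so their promoters are shown first, with that of Egr2 beside them. They did not move alike in every comparison. From 72 h to transfer in control cells the log2 difference was 1.51 for Nr4a1, −0.82 for Nr4a2 and −0.50 for Nr4a3. RefSeq promoter windows on build GRCm38.p6 ran from 250 bases before to 50 after the annotated start. The set of windows searched included 5 of the 8 genes (Egr2, Nr4a1, Nr4a2, Nr4a3 and Ier3). It included no window for Egr1, Egr3 or Ier2, so the promoters of these genes were not examined. Their absence from the set does not mean that they lack an annotated start. Capitals mark matches to 3 motifs, searched on both strands: TGACG, the core bound by CREB and ATF factors; TGCGTCA, a variant of that site which holds a TGACG on its opposite strand; and the CArG box, bound by SRF. For Egr2, which has 5 windows, the window with the most matches is shown.
Nr4a1, chr15:101266596-101266895, plus strand: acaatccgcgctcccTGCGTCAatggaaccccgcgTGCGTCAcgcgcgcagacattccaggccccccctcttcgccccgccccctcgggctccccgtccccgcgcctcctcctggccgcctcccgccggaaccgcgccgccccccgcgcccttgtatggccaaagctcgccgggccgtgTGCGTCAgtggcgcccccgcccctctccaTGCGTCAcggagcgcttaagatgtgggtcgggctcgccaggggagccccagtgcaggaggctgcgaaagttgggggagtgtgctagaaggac
Nr4a2, chr2:57123954-57124253, minus strand: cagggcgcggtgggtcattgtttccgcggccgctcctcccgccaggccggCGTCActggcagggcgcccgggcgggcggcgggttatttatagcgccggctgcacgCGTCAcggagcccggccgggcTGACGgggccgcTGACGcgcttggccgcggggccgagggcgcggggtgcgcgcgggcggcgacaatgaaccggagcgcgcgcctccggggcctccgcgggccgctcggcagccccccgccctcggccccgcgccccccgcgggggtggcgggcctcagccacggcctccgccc
Nr4a3, chr4:48045055-48045354, plus strand: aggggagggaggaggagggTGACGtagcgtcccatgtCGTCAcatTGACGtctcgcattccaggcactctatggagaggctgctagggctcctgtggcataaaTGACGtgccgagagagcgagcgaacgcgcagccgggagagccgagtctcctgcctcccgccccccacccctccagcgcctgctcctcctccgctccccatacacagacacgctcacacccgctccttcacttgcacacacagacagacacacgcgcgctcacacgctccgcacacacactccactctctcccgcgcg
Egr2, chr10:67537619-67537918, plus strand: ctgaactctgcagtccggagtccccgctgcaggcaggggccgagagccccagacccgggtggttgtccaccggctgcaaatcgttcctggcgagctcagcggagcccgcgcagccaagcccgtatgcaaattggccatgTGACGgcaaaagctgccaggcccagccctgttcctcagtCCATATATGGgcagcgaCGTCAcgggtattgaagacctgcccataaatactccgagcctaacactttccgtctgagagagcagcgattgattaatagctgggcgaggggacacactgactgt
Each of the 3 NR4A windows held 4 copies of TGACG, and those of Nr4a1 all lay within TGCGTCA. The Egr2 window held 2 copies of TGACG and 1 CArG box. Ier3 held no match to the 3 motifs in its window. Of the 32851 mouse windows of this length that were searched, 20.8% held TGACG at least once and 76 windows (0.231%) held 4 or more copies. TGCGTCA occurred in 2.12% of windows, with 3 or more copies in 1 window, that of Nr4a1, and the CArG box occurred in 1.63%. These matches describe the letters of the windows and were not tested as binding sites.

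T-cell markers were high on all arrays (mean log2 signal over 9 measured markers 11.88 to 12.82). The 19 myeloid markers were uneven: their mean signal was 7.79 and 8.67 on naive arrays 33 and 35 but 11.67 and 11.52 on naive arrays 34 and 36. At 72 h it ranged from 7.89 to 8.63 in control cells and from 6.90 to 6.94 in Stat5ca cells. After transfer it was 12.34 and 12.23 in control cells, 9.52 to 10.40 in Stat5ca cells, and 12.21, 12.12 and 10.49 on the T-BetKO arrays 39, 40 and 41. By group mean all 19 were above background in naive and in all transferred cells, 13 in control and 4 in Stat5ca cells at 72 h. Granulocyte markers moved with them, at 12.97 and 12.85 on naive arrays 34 and 36 against 6.99 and 7.76 on arrays 33 and 35. Background was set at 7.30, the 95th percentile of group means of 1190 olfactory and vomeronasal receptor genes. Some arrays of a group were nearly alike: the SD of their differences over all genes was under 0.2 for naive arrays 34 and 36, control arrays 1 and 4, control arrays 2 and 3, Stat5ca arrays 11, 12 and 14, and T-BetKO arrays 39 and 40. Their relation is not stated in the labels, so each comparison is also given with such arrays averaged, which leaves 3 naive replicates and 2 in every other group. Stat5a, read as a check of the Stat5ca label, was at 12.06 ± 0.09 (SD) in Stat5ca cells against 10.56 ± 0.04 in control cells at 72 h, and at 11.68 ± 0.12 against 10.25 ± 0.30 after transfer. Stat5b, read beside it, was at 11.40 ± 0.21 in Stat5ca cells against 11.30 ± 0.10 in control cells at 72 h. After transfer Stat5b was at 10.23 ± 0.09 against 10.59 ± 0.19. In bulk RNA, fewer cells of a type and less RNA per cell cannot be told apart.

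**Figure D1:**
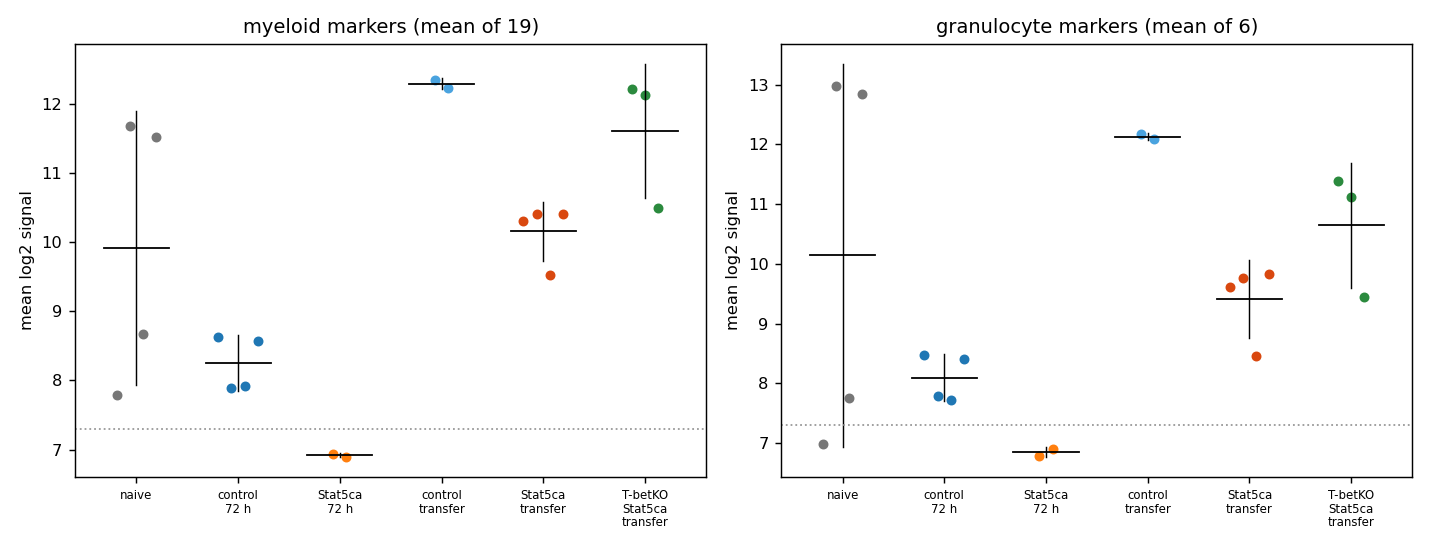
Mean log2 signal of 19 myeloid markers (left) and 6 granulocyte markers (right) on each array, by group. Points are arrays, horizontal bars are group means, vertical bars are SD and the dotted line is the background of 7.30. Naive arrays 34 and 36, both transferred control arrays and T-BetKO arrays 39 and 40 stand above 11 in both panels.

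Egr1, the best known of the EGR factors, was lowest on average in naive cells and highest in T-BetKO cells. It read 9.94, 10.01, 9.56 and 10.02 on naive arrays 33 to 36, 10.38, 11.02, 11.24 and 10.36 on control arrays 1 to 4 at 72 h, and 10.77 and 9.85 on the Stat5ca arrays at 72 h. After transfer it read 11.23 and 10.88 in control cells on days 18 and 120, 11.25, 11.09, 9.87 and 11.34 on Stat5ca arrays 11 to 14, and 11.58, 11.61 and 11.31 on T-BetKO arrays 39 to 41. The T-BetKO cells came first and did not overlap the next group, control cells after transfer, whereas every other pair of neighbours in the order overlapped, down to the naive cells. Array 13 stood 1.35 below the mean of arrays 11, 12 and 14.

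Egr2 and Egr3 ordered the groups in another way, with Stat5ca cells low at both times. Egr2 read 8.99, 8.51, 8.51 and 8.38 in naive cells, 10.17, 9.71, 9.83 and 10.08 in control cells at 72 h, with 8.42 and 7.97 in Stat5ca cells at 72 h. After transfer Egr2 read 9.23 and 9.32 in control cells, 8.82, 8.77, 8.28 and 8.88 in Stat5ca cells and 11.21, 10.90 and 9.53 in T-BetKO cells. By mean, T-BetKO cells (10.54 ± 0.89) came first, with their day 54 array under all 4 control arrays of 72 h. Control cells at 72 h, control cells after transfer and Stat5ca cells after transfer followed in that order without overlap, and the last 3 groups (Stat5ca after transfer, naive, Stat5ca at 72 h) overlapped with their neighbours.

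Egr3 read 9.10, 8.97, 8.76 and 9.06 in naive cells, 9.70, 9.39, 9.80 and 9.87 in control cells at 72 h, with 8.65 and 8.57 in Stat5ca cells at 72 h. After transfer Egr3 read 9.11 and 9.22 in control cells, 8.70, 8.74, 8.48 and 8.75 in Stat5ca cells and 9.33, 9.13 and 9.31 in T-BetKO cells. Control cells at 72 h were highest and stood apart from T-BetKO cells, which overlapped with transferred control cells. Naive cells came next without overlap on either side, though by little (9.10 against 9.11 above and 8.76 against 8.75 below). Both Stat5ca groups of T-bet-sufficient cells were at the bottom, overlapping each other.

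Nr4a1 was high in all transferred cells. It read 9.95, 10.75, 9.07 and 10.97 in naive cells, 11.24, 10.50, 10.46 and 11.21 in control cells at 72 h, with 10.20 and 9.42 in Stat5ca cells at 72 h. After transfer it read 12.23 and 12.49 in control cells, 12.83, 12.78, 11.60 and 12.85 in Stat5ca cells and 12.99, 12.90 and 12.75 in T-BetKO cells. The 3 transferred groups overlapped from one to the next and stood clear of control cells at 72 h. The naive arrays with high myeloid markers, 34 and 36, were 1.35 above arrays 33 and 35 in Nr4a1, and 0.66 above them in Ier3, while for Nr4a2 that difference was −0.01. It was 0.26 for Egr1, 0.14 for Ier2 and 0.09 for Egr3, and −0.30 for Egr2 and −0.22 for Nr4a3.

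Nr4a2 read 9.11, 8.50, 8.13 and 8.72 in naive cells, 11.42, 10.48, 10.51 and 11.42 in control cells at 72 h, with 10.26 and 9.93 in Stat5ca cells at 72 h. After transfer Nr4a2 read 9.29 and 10.98 in control cells, 11.64, 11.11, 10.73 and 11.55 in Stat5ca cells and 11.68, 11.67 and 12.11 in T-BetKO cells. Its lowest group was naive, below every other array, and its highest was T-BetKO, above every Stat5ca array. The groups between overlapped, and the day 120 control array was 1.69 above the day 18 control array.

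Nr4a3 followed the same order of groups as Nr4a2. It read 8.19, 8.22, 8.61 and 8.14 in naive cells, 10.87, 10.25, 10.15 and 10.82 in control cells at 72 h, with 9.59 and 9.58 in Stat5ca cells at 72 h. After transfer it read 9.30 and 10.75 in control cells, 11.09, 10.83, 10.17 and 10.90 in Stat5ca cells and 11.31, 11.16 and 11.90 in T-BetKO cells. Naive cells were again below every other array, T-BetKO cells were again above every Stat5ca array, and the day 120 control array was 1.45 above the day 18 array.

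Ier2 was highest in Stat5ca cells after transfer. It read 8.70, 8.92, 8.91 and 8.98 in naive cells, 8.67, 9.44, 9.41 and 8.75 in control cells at 72 h, with 9.24 and 8.90 in Stat5ca cells at 72 h. After transfer it read 9.93 and 9.47 in control cells, 10.47, 10.45, 9.81 and 10.38 in Stat5ca cells and 9.93, 9.66 and 9.90 in T-BetKO cells. All arrays of transferred cells lay above all arrays of the other 3 groups. Within each of these sets the neighbours overlapped.

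Ier3 was lowest in naive cells, where it read 7.19, 7.84, 7.66 and 8.34, with array 33 under background. It read 8.71, 10.10, 10.08 and 8.75 in control cells and 8.86 and 9.04 in Stat5ca cells at 72 h. After transfer Ier3 read 9.24 and 8.56 in control cells, 9.40, 9.38, 8.98 and 9.56 in Stat5ca cells and 10.21, 10.16 and 8.56 in T-BetKO cells. The 5 groups above naive all overlapped with their neighbours, and the naive cells with none. The T-BetKO arrays of day 14, which carried more myeloid marker signal than the day 54 array, were 1.63 above it in Ier3 and 1.52 above it in Egr2. The differences were smaller for Egr1 (0.29) and Nr4a1 (0.20), and negative for Nr4a3 (−0.66), Nr4a2 (−0.44), Ier2 (−0.10) and Egr3 (−0.08). Day and RNA integrity differed between these arrays too, and no cause was tested.

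**Figure D2:**
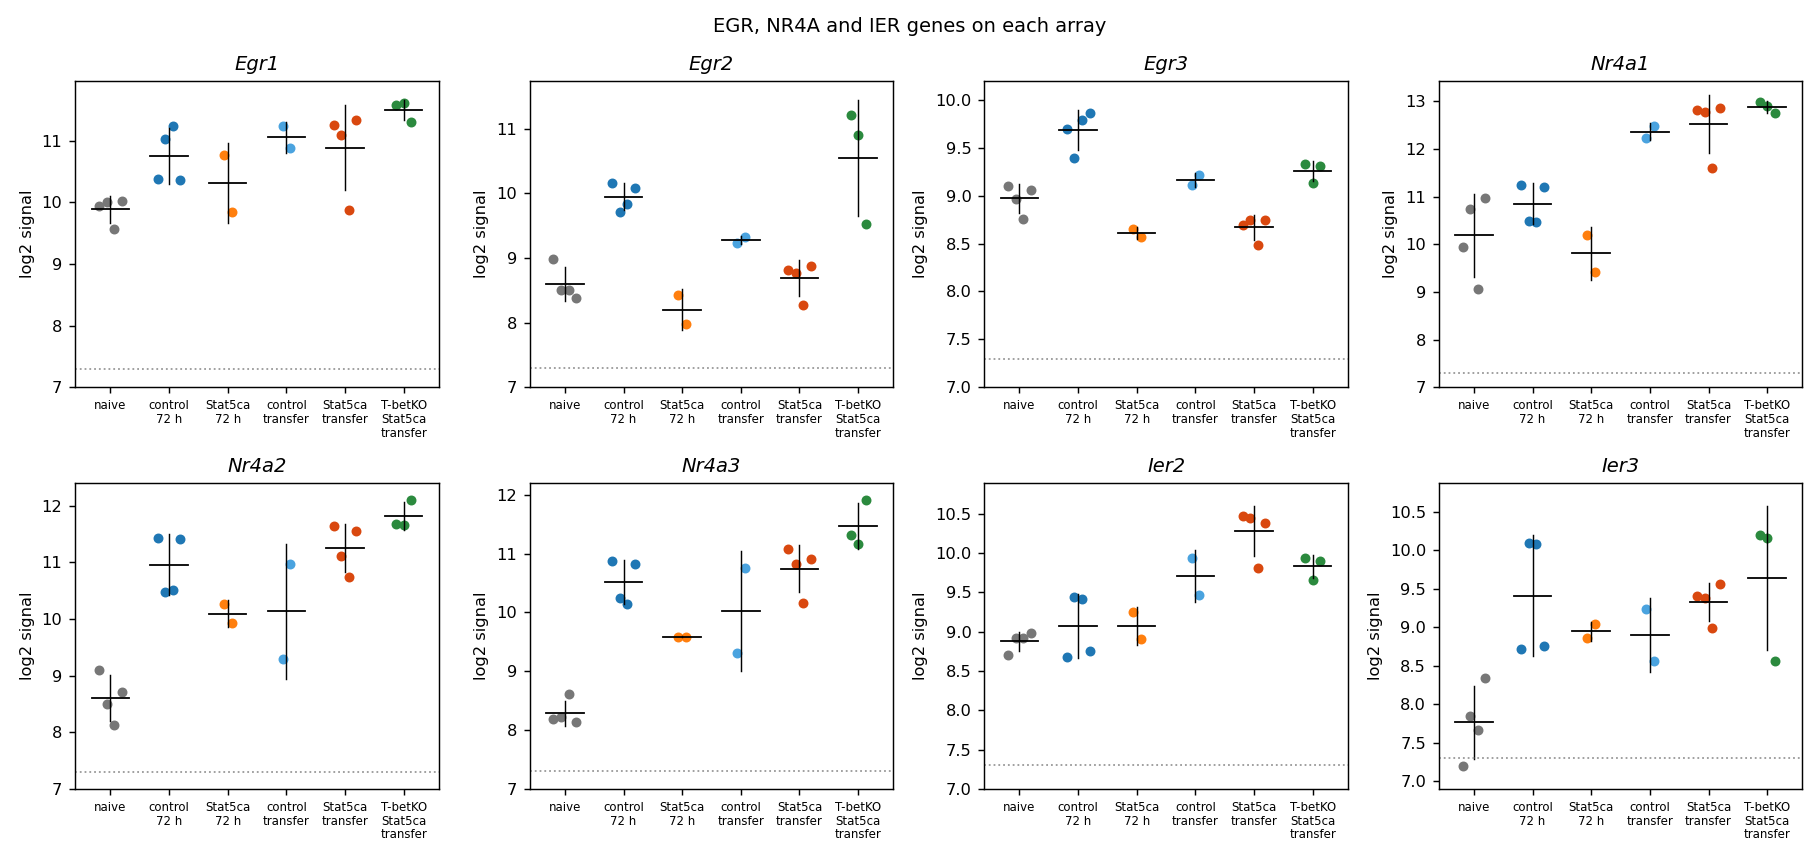
Log2 signal of the 8 genes on each of the 19 arrays, by group, with the number of arrays per group as given in the text. Points are arrays in the order of their numbers, horizontal bars are means, vertical bars are SD and the dotted line is the background of 7.30. Nr4a1 and Ier2 stand higher on the transferred arrays than on the others, and Egr2 and Egr3 stand low in the T-bet-sufficient Stat5ca cells at both times.

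Within control cells at 72 h 7 of the 8 genes split the 4 arrays into the same pairs that were nearly alike over all genes. Egr3 did not, with array 3 (9.80) between arrays 1 and 4 (9.70 and 9.87). Arrays 1 and 4 were above arrays 2 and 3 by 0.93 for Nr4a2, 0.74 for Nr4a1, 0.64 for Nr4a3 and 0.35 for Egr2. They were below arrays 2 and 3 by mean differences of −1.36 for Ier3, −0.76 for Egr1 and −0.71 for Ier2. The myeloid marker mean was 8.63 and 8.57 on arrays 1 and 4 and 7.89 and 7.91 on arrays 2 and 3, and its part in this split was not tested. In the Stat5ca cells after transfer, array 13, with the lowest myeloid markers of its group (9.52), was below the mean of the other 3 arrays for all 8 genes, by 0.25 (Egr3) to 1.35 (Egr1).

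The comparison of control effector cells at 72 h with naive cells asks what antigen activation left changed. Of the 8 genes, 6 were higher and 0 lower at an adjusted p under 0.05 (limma, Benjamini-Hochberg over all genes), where 46.8% of all genes were called, 22.0% higher and 24.9% lower. Here and below, a direction with 0 genes called also had 0 at an unadjusted p under 0.05 unless another count is given. The largest rises were in the nuclear receptors Nr4a2 (2.34 ± 0.34 SE, a 5.08-fold change, adjusted p = 6.26e-05) and Nr4a3 (2.23 ± 0.27, 4.70-fold, adjusted p = 1.06e-05). The survival modulator Ier3 rose by 1.65 ± 0.32 (adjusted p = 7.53e-04), from a naive level near background. Among EGR factors Egr2 rose by 1.35 ± 0.16 (adjusted p = 8.22e-06), Egr3 by 0.72 ± 0.11 (adjusted p = 7.04e-05) and Egr1 by 0.87 ± 0.30 (adjusted p = 0.0295). Every array of control cells at 72 h was above every naive array for these 6 genes. In this and every later comparison, the share of all genes whose arrays separated in this way was not counted.

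Nr4a1 differed by 0.67 ± 0.38 (adjusted p = 0.160) and Ier2 by 0.19 ± 0.19 (adjusted p = 0.418), and for both the arrays overlapped. Without naive arrays 34 and 36 the Nr4a1 difference was 1.34 (adjusted p = 0.00995), and with the myeloid marker mean as a covariate it was 1.37 (adjusted p = 0.00213). With near-identical arrays averaged 5 of the 6 calls held, and Egr1 was at 0.91 (adjusted p = 0.124). Egr1 was also not called without array 33, 35, 2 or 3 (0.89, 0.76, 0.78 and 0.70), after quantile normalization (0.69) or with a robust prior.

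Most other immediate-early genes that were called had the opposite direction. Of 23 measured, 1 was higher and 13 lower, with a list median of −0.59 against 1.11 for the 8 genes and −0.09 for all genes tested. The MAP kinase phosphatase Dusp1 fell (−2.55 ± 0.24, adjusted p = 7.37e-07), as did the AP-1 subunits Fos (−2.37 ± 0.29, adjusted p = 1.18e-05), Fosb (−2.12 ± 0.32, adjusted p = 8.50e-05) and Jun (−1.74 ± 0.16, adjusted p = 5.54e-07). With near-identical arrays averaged 0 were higher and 11 lower, and without naive arrays 34 and 36 the counts were 1 and 12. Of 14 partners and T-cell targets of the EGR factors, 11 were higher and 1 lower: the costimulatory receptor Tnfrsf9 rose by 3.32 ± 0.11 and the inhibitory receptor Lag3 by 3.06 ± 0.19. Of 12 genes linked to NR4A in T cells, 7 were higher and 2 lower, led by the inhibitory receptors Pdcd1 (3.77 ± 0.29) and Ctla4 (3.42 ± 0.23). Of 18 measured genes of the signalling path upstream, 4 were higher and 3 lower, among them the kinase gene Map2k1 (0.58 ± 0.09) and the calcineurin-activated factor gene Nfatc2 (−0.34 ± 0.09). The upstream balance varied with the setting: higher and lower counts were 2 and 7 after quantile normalization, 2 and 5 without naive arrays 34 and 36, 2 and 4 with the myeloid covariate and 2 and 1 with averaged arrays. They were 3 and 4 without array 34 and 2 and 2 with only the groups compared. Of 8 measured heat-shock genes 4 were higher and 1 lower. These counts were 3 and 0 (limma; at most 1 lower at an unadjusted p under 0.05) after quantile normalization, with only the groups compared, averaged, and without control array 1 or 4.

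**Figure D3:**
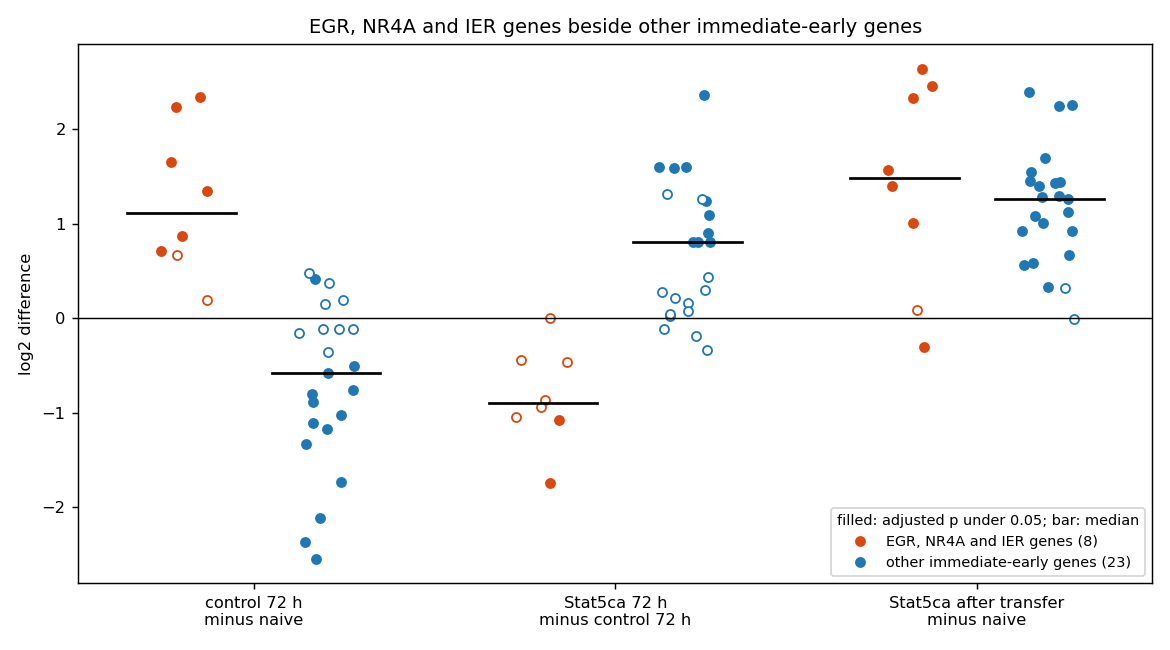
Log2 differences of the 8 EGR, NR4A and IER genes (orange) and of 23 other immediate-early genes (blue) in 3 comparisons, named on the horizontal axis. Points are genes, filled where the adjusted p is under 0.05, and bars are list medians. At 72 h the medians were 1.11 and −0.59 against naive cells and −0.90 and 0.80 for Stat5ca against control cells.

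Stat5ca cells at 72 h were compared with control effector cells of the same time. The labels name transduction for the Stat5ca cells alone, so transduction and GFP+ status cannot be told apart from Stat5ca here. Egr2 and Egr3 were lower in the Stat5ca cells and the other 6 genes were not called, where 5.72% of all genes were called, 2.37% higher and 3.35% lower. Egr2 fell by 1.75 ± 0.19 (SE, 3.36-fold lower, adjusted p = 2.31e-04), in place 58 of 19938 genes counted from the most negative difference. Egr3 fell by 1.08 ± 0.13 (2.11-fold lower, adjusted p = 4.36e-04). Both Stat5ca arrays were below all 4 control arrays for each gene. For Egr3 they were also below all naive arrays, and for Egr2 one lay inside and one below the naive range. These 2 calls were kept in every one of the 17 alternative settings run, with near-identical arrays averaged among them (adjusted p = 0.0274 for Egr2 and 0.0227 for Egr3). The labels name GFP+ cells for the Stat5ca arrays of 72 h alone, and myeloid marker signal was lower there than in control cells; with it as a covariate Egr2 was at −1.81 and Egr3 at −1.04.

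The NR4A genes were also lower on both Stat5ca arrays than on every control array at 72 h, but none was called. Their differences were −1.04 ± 0.47 for Nr4a1 (adjusted p = 0.227), −0.86 ± 0.42 for Nr4a2 (adjusted p = 0.272) and −0.94 ± 0.33 for Nr4a3 (adjusted p = 0.118), with 95% confidence intervals of −2.04 to −0.05, −1.75 to 0.03 and −1.64 to −0.23. Nr4a3 was called when the fit held only the 2 groups (adjusted p = 0.0445). Egr1 (−0.44 ± 0.37), Ier2 (0.00 ± 0.23) and Ier3 (−0.46 ± 0.39) overlapped between the groups.

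Part of the other immediate-early genes had the opposite direction in Stat5ca cells at 72 h. Of 23, 10 were higher and 0 lower, and the list median was 0.80 against −0.90 for the 8 genes and 0.04 for all genes. Jun rose by 2.36 ± 0.19 (adjusted p = 1.03e-05), the RNA-binding protein gene Zfp36 by 1.60 ± 0.36 (adjusted p = 0.0177), the phosphatase subunit gene Ppp1r15a by 1.59 ± 0.24 (adjusted p = 0.00177) and Dusp1 by 1.59 ± 0.29 (adjusted p = 0.00602). With near-identical arrays averaged 1 was called higher, and without Stat5ca array 9 the number was 2. Among EGR partners and targets 0 of 14 were higher (1 at an unadjusted p under 0.05) and 4 lower: Nrgn (−1.46 ± 0.34), Tnfrsf9 (−0.71 ± 0.14), the EGR corepressor gene Nab2 (−0.54 ± 0.12) and Rnf128, which was under background in both groups. No gene of that list was called by limma without Stat5ca array 10 (5 lower at an unadjusted p under 0.05) or with averaged arrays (6 lower). The number lower was 2 without Stat5ca array 9, without control array 4 and with only the groups compared. Of 12 NR4A-linked genes, Klf2, a factor of quiescent T cells (1.51 ± 0.22), and Foxp3 (1.37 ± 0.11) were higher and Pdcd1 was lower (−2.14 ± 0.36); the counts were 4 and 1 with only the groups compared and 3 and 2 without naive arrays 34 and 36. Of the upstream genes 1 of 18 was higher, the factor gene Mef2d (0.69 ± 0.17), and none was called by limma with either covariate, averaged, or without any 1 of arrays 1, 4, 9 and 10 (1 or 2 higher and at most 1 lower at an unadjusted p under 0.05). Of the heat-shock genes 1 of 8, Hspd1, was lower (−0.84 ± 0.16), and none was called averaged or without array 9 or 10 (limma; 1 lower at an unadjusted p under 0.05).

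Control cells recovered after transfer were compared with naive cells, to describe what differed after activation and time in a host. Here 6 of the 8 genes were higher and 0 lower, where 17.7% of all genes were called, 7.94% higher and 9.81% lower. Nr4a1 rose by 2.17 ± 0.47 (SE, 4.51-fold, adjusted p = 0.00686), Nr4a3 by 1.74 ± 0.33 (3.33-fold, adjusted p = 0.00349) and Nr4a2 by 1.52 ± 0.42 (2.87-fold, adjusted p = 0.0224). Egr1 rose by 1.17 ± 0.37 (adjusted p = 0.0414), Ier2 by 0.82 ± 0.23 (adjusted p = 0.0263) and Egr2 by 0.68 ± 0.19 (adjusted p = 0.0272). Ier3 (1.14 ± 0.39, adjusted p = 0.0570) and Egr3 (0.19 ± 0.13, adjusted p = 0.294) were not called. Both transferred arrays were above all naive arrays for each of the 8 genes, though for Egr3 by little (9.11 on array 30 against 9.10 on naive array 33). How many of all genes separated likewise was not counted.

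The calls depended on how the 2 transferred arrays were treated. Averaging near-identical arrays left Nr4a1 (adjusted p = 0.0228) and Nr4a3 (adjusted p = 0.0267) called. Without the day 120 array 0 of the 8 were called by limma (6 were higher at an unadjusted p under 0.05), and without the day 18 array the 3 NR4A genes were. Without naive array 35 the count was 3 (Nr4a1, Nr4a3 and Ier2), without array 33 it was 4 (Egr1 and Ier2 lost), and without array 36 it was 7 (Ier3 gained). Myeloid marker signal was higher on both transferred arrays (12.34 and 12.23) than on any naive array. With that signal as a covariate Nr4a3 alone was called, and Nr4a1 was at 1.17 (adjusted p = 0.136).

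Other immediate-early genes were higher as well, 17 of 23 with 0 lower, and 13 of 23 with near-identical arrays averaged and 6 with the myeloid covariate. The number was 6 without the day 120 array and 11 with only the groups compared. The stress-response factor Atf3 rose by 3.21 ± 0.42 (adjusted p = 3.15e-04), Rgs1, which damps chemokine signalling, by 2.06 ± 0.42 (adjusted p = 0.00503) and Fosb by 2.04 ± 0.39 (adjusted p = 0.00360). The list median was 0.81 beside 1.15 for the 8 genes and −0.12 for all genes. Of EGR partners and targets 4 were higher, with Fasl, the death ligand (2.68 ± 0.31, from a naive level under background), and 4 lower, with Nab2 (−0.68 ± 0.12) and Dgka (−0.64 ± 0.08). Higher and lower counts of that list were 1 and 1 with only the groups compared, 1 and 2 with the myeloid covariate, and 2 and 2 without 1 or the other transferred array. They were 2 and 3 with all 19 arrays and without naive array 33 or 35. Of 12 NR4A-linked genes 1 was higher, Havcr2 (2.31 ± 0.56), and 2 were lower, the exhaustion-linked factor Tox (−2.20 ± 0.18) and Runx3 (−0.46 ± 0.15). The NR4A-linked counts were 0 and 1 with only the groups compared, with the myeloid covariate and without the day 120 array (limma; 1 or 2 higher at an unadjusted p under 0.05). They were 2 and 1 without the day 18 array, and 1 and 1 after centring, with RNA integrity, averaged, and without naive array 33 or 35. Of 18 upstream genes 0 were higher (3 at an unadjusted p under 0.05) and 5 lower, with Lat at −0.99 ± 0.13 and Zap70 at −0.63 ± 0.15. The number lower was 9 without naive arrays 34 and 36 and 8 without array 34, each with 2 higher. It was 1 with only the groups compared, 2 with the myeloid covariate, and 2 and 3 without the day 18 and the day 120 array. None of the 8 heat-shock genes was called by limma in this comparison, and 1 was higher without naive arrays 34 and 36.

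Set against control cells at 72 h, the transferred control cells had some of the genes higher and others lower. Nr4a1 rose by 1.51 ± 0.47 (SE, 2.84-fold, adjusted p = 0.0184) and Ier2 by 0.63 ± 0.23 (adjusted p = 0.0456), whereas Egr2 fell by 0.67 ± 0.19 (adjusted p = 0.0126) and Egr3 fell by 0.52 ± 0.13 (adjusted p = 0.00444). Thus 2 were higher and 2 lower, where 37.5% of all genes were called, 13.1% higher and 24.4% lower. The arrays did not overlap for these 4 genes. Nr4a2 (−0.82 ± 0.42), Nr4a3 (−0.50 ± 0.33), Ier3 (−0.51 ± 0.39) and Egr1 (0.30 ± 0.37) were not called, and their arrays overlapped.

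The day 18 and day 120 arrays weighed differently on these results. Without the day 120 array Nr4a2 (−1.67, adjusted p = 0.00917) and Nr4a3 (−1.22, adjusted p = 0.0101) were called lower, and Egr2 (−0.72) and Nr4a1 (1.38) were not called. Without the day 18 array 0 of the 8 were called by limma (3 at an unadjusted p under 0.05), and without control array 1 or 4 Ier2 was not. Averaging near-identical arrays left Egr3 alone called (adjusted p = 0.0191). With the myeloid covariate Nr4a1 was at −0.21 (adjusted p = 0.818), so its direction turned.

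Other immediate-early genes were higher after transfer in 20 of 23 cases and lower in 0, with a median of 1.51 beside −0.50 for the 8 genes and −0.04 for all genes. Fosb rose by 4.16 ± 0.39, Dusp1 by 3.98 ± 0.29 and Fos by 3.81 ± 0.35. The count was 19 with near-identical arrays averaged and 16 with the myeloid covariate. EGR partners and targets went the other way, with 1 of 14 higher and 10 lower, with Tnfrsf9 at −3.79 ± 0.14 and Lag3 at −2.30 ± 0.23. NR4A-linked genes had 2 of 12 higher, with Klf2 at 2.71 ± 0.22, and 8 lower, with Pdcd1 at −3.92 ± 0.36 and Ctla4 at −2.75 ± 0.29. Of upstream genes 3 were higher and 8 lower, or 1 and 2 with the myeloid covariate. Of the 8 heat-shock genes 1 was higher, the stress-induced chaperone gene Hspa1a (2.55 ± 0.69, adjusted p = 0.00821), and 2 were lower.

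Stat5ca cells after transfer were compared with the same naive arrays, which they share with the transferred control cells. The 3 NR4A genes rose by 2.64 ± 0.34 (Nr4a2, SE, 6.24-fold, adjusted p = 5.10e-05), 2.46 ± 0.27 (Nr4a3, 5.49-fold, adjusted p = 1.18e-05) and 2.33 ± 0.38 (Nr4a1, 5.03-fold, adjusted p = 3.63e-04). Counted from the largest rise, they were in places 42, 49 and 58 of 19938 genes. Ier3 rose by 1.57 ± 0.32 (adjusted p = 0.00189), Ier2 by 1.40 ± 0.19 (adjusted p = 8.50e-05) and Egr1 by 1.003 ± 0.30 (adjusted p = 0.0220). Egr3 fell by 0.30 ± 0.11 (adjusted p = 0.0422) and Egr2 was at 0.09 ± 0.16 (adjusted p = 0.716). In all 6 were higher and 1 lower, where 28.6% of all genes were called, 15.8% higher and 12.7% lower.

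Every Stat5ca array was above every naive array for the NR4A and IER genes and below every naive array for Egr3. For Egr3 the margin was small (8.75 on array 14 against 8.76 on naive array 35). For Egr1 array 13 (9.87) lay inside the naive range. The NR4A and IER calls were kept in all 19 alternative settings. Egr1 and Egr3 were lost with near-identical arrays averaged (adjusted p = 0.299 and 0.106). Egr3 was also lost without naive arrays 34 and 36 together and in each fit without naive array 33, 34 or 36 or Stat5ca array 11, 12, 13 or 14 (differences from −0.33 to −0.24), and Egr1 after quantile normalization and without array 35, 11, 12 or 14 (0.85 to 0.93).

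**Figure D4:**
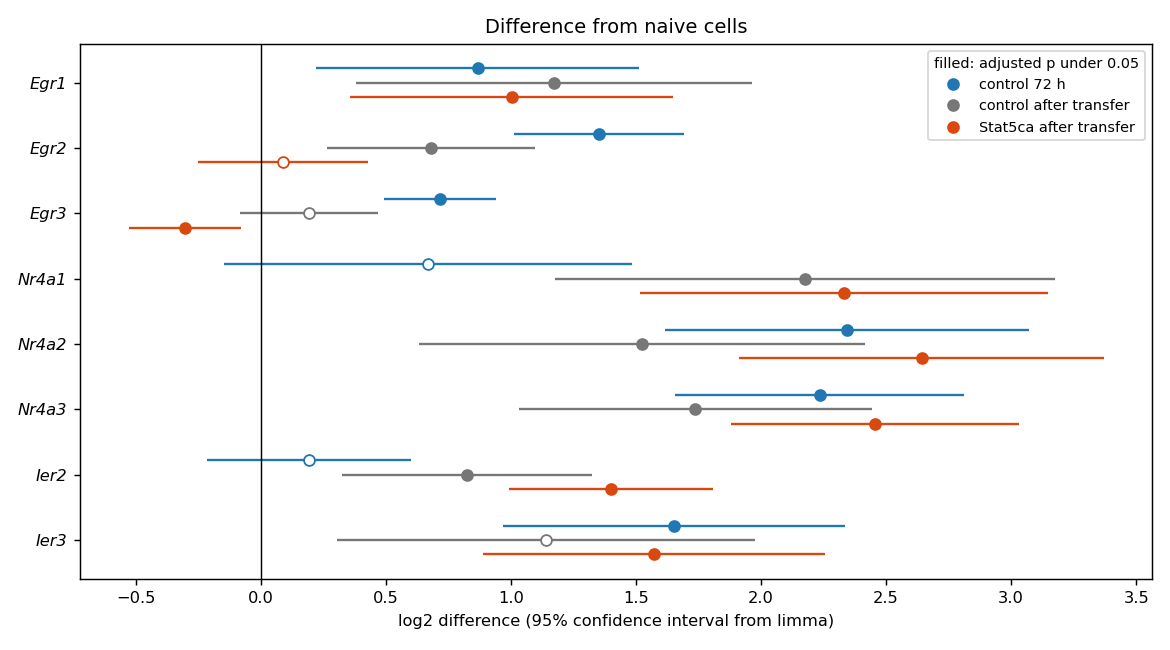
Log2 difference from naive cells for the 8 genes in control cells at 72 h, control cells after transfer and Stat5ca cells after transfer. Points are limma estimates, lines their 95% confidence intervals, and filled points have an adjusted p under 0.05. All 3 groups share the 4 naive arrays. Nr4a2 and Nr4a3 are called in each group, and Egr3 is at 0.72, 0.19 and −0.30.

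Of the other immediate-early genes 21 of 23 were higher and 0 lower, or 13 and 0 with near-identical arrays averaged, and the list median was 1.26 beside 1.49 for the 8 genes and −0.05 for all genes. Atf3 rose by 2.39 ± 0.34, Fosb by 2.25 ± 0.32 and the ERK phosphatase gene Dusp5 by 2.24 ± 0.14. Of EGR partners and targets 5 were higher, with Fasl at 4.37 ± 0.26 and Tnfrsf9 at 1.32 ± 0.11, and 4 lower. Of NR4A-linked genes 4 were higher, with the activation factor Irf4 at 2.10 ± 0.21 and Tigit at 1.63 ± 0.24, and Tox was lower (−1.36 ± 0.14); averaged, the counts were 2 and 1. Of upstream genes 4 were higher, with Nfatc2 at 0.87 ± 0.09, and 1 lower. These were 7 and 1 with the myeloid covariate and without naive array 35, and 2 and 0 averaged (limma; 1 lower at an unadjusted p under 0.05). Of the 8 measured heat-shock genes 7 were higher and 0 lower, with the mitochondrial chaperonin genes Hspe1 at 0.99 ± 0.13 and Hspd1 at 0.65 ± 0.13, and 3 were higher with near-identical arrays averaged.

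The direct comparison of Stat5ca with control cells after transfer describes how the recovered cells differed. Transduction, named for the Stat5ca cells alone, cannot be told apart from Stat5ca here either. Egr2 fell by 0.59 ± 0.19 (SE, 1.51-fold lower, adjusted p = 0.0372) and Egr3 fell by 0.50 ± 0.13 (1.41-fold lower, adjusted p = 0.0106), without overlap of the arrays. The other 6 genes were not called, so 0 were higher (3 at an unadjusted p under 0.05) and 2 lower, where 25.4% of all genes were called, 16.9% higher and 8.46% lower. Nr4a2 differed by 1.12 ± 0.42 (95% confidence interval 0.23 to 2.01, adjusted p = 0.0632), Nr4a3 by 0.72 ± 0.33 (0.01 to 1.42, adjusted p = 0.132) and Ier2 by 0.58 ± 0.23 (0.07 to 1.08, adjusted p = 0.0889). Nr4a1 was at 0.16 ± 0.47 (−0.84 to 1.16), Egr1 at −0.17 ± 0.37 and Ier3 at 0.43 ± 0.39.

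The 2 control arrays bore on these values through Nr4a2 and Nr4a3, which were higher on day 120 than on day 18. Against the day 18 array alone, which is then assumed to vary like the other groups, Nr4a2 was 1.96 higher (adjusted p = 0.00943) and Nr4a3 1.44 higher (adjusted p = 0.0101), while Egr2 and Egr3 were not called. Against the day 120 array alone Nr4a3 was at −0.0039 and Nr4a2 at 0.27, and Egr3 was the gene called. Egr2 was lost without Stat5ca array 12 or 13 (adjusted p = 0.0537 and 0.0865), and without array 13 Nr4a2 (1.29) and Ier2 (0.73) were called. When near-identical arrays were averaged Egr3 was called (adjusted p = 0.0294) and Egr2 was not (adjusted p = 0.0776). Myeloid markers were higher in control than in Stat5ca cells, and with them as a covariate Egr2 was at −0.69 and Egr3 at −0.43, neither called by limma (both with an unadjusted p under 0.05).

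**Figure D5:**
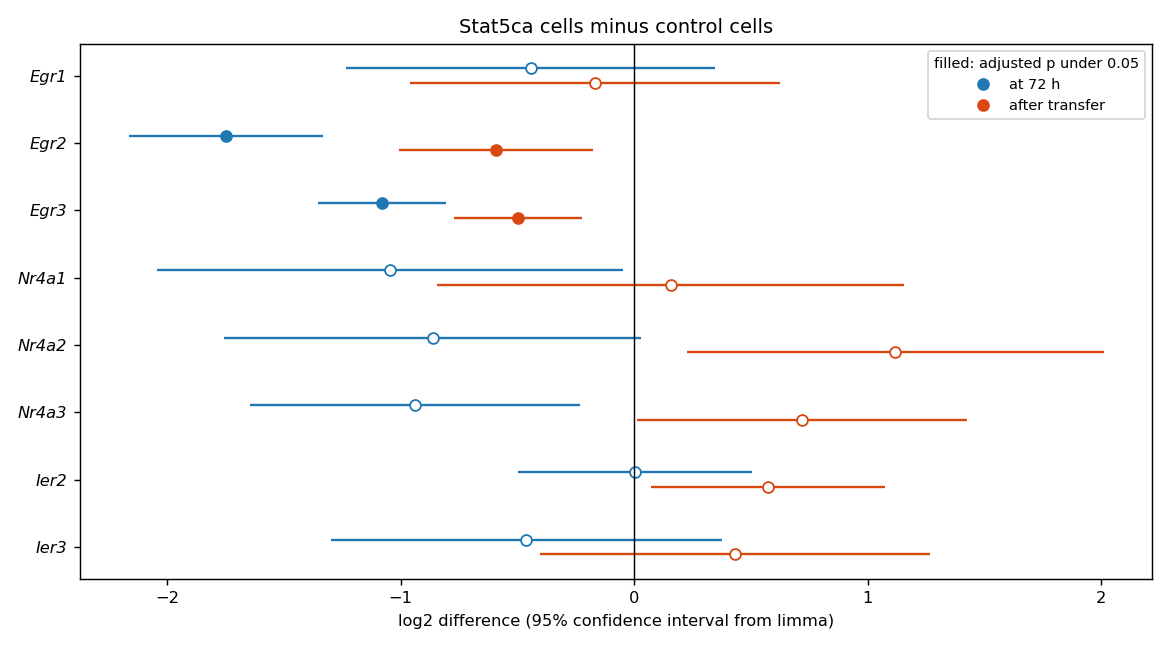
Log2 difference of Stat5ca cells from control cells at 72 h and after transfer for the 8 genes. Points are limma estimates, lines their 95% confidence intervals, and filled points have an adjusted p under 0.05. Egr2 is at −1.75 and −0.59 and Egr3 at −1.08 and −0.50, and Nr4a2 is at −0.86 and 1.12.

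Other immediate-early genes had 8 of 23 higher and 1 lower in transferred Stat5ca cells, or 2 and 0 with near-identical arrays averaged (limma; 3 lower at an unadjusted p under 0.05). The counts were 2 and 1 without the day 18 array and 5 and 0 with the myeloid covariate (limma; 2 lower at an unadjusted p under 0.05). Csrnp1 rose by 1.13 ± 0.18 (adjusted p = 4.27e-04) and the phosphatase gene Dusp2 by 1.07 ± 0.22 (adjusted p = 0.00230). Of EGR partners and targets 3 were higher, Tnfrsf9 by 1.78 ± 0.14, Fasl by 1.69 ± 0.31 and Crtam by 0.93 ± 0.22, and 2 lower, with Lag3 at −0.69 ± 0.23, or 2 and 1 without the day 120 array. Of NR4A-linked genes 5 of 12 were higher and 0 lower (1 at an unadjusted p under 0.05), with Irf4 at 1.40 ± 0.26 and Tox at 0.83 ± 0.18. The number higher was 3 averaged, with the myeloid covariate and without the day 18 array. Of 18 upstream genes 7 were higher and 0 lower, with Lat at 0.87 ± 0.13 and Zap70 at 0.84 ± 0.15.

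Whether the Stat5ca effect differed between the times was tested as a difference of the 2 effects. It was more positive after transfer for 4 of the 8 genes and more negative for 0, where 17.8% of all genes were called, 12.3% more positive and 5.48% more negative. The difference was 1.98 ± 0.59 (SE) for Nr4a2 (adjusted p = 0.0307), 1.66 ± 0.47 for Nr4a3 (adjusted p = 0.0235), 1.16 ± 0.28 for Egr2 (adjusted p = 0.00929) and 0.58 ± 0.18 for Egr3 (adjusted p = 0.0388). For Egr2 and Egr3 both effects were negative and the one at 72 h was larger in size, whereas for Nr4a2 and Nr4a3 the sign of the estimate turned. Nr4a1 (1.20 ± 0.66, adjusted p = 0.256), Ier3 (0.89 ± 0.55), Ier2 (0.57 ± 0.33) and Egr1 (0.28 ± 0.52) were not called.

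With near-identical arrays averaged 0 of the 4 were called (limma, adjusted p from 0.107 to 0.191), and all 4 had an unadjusted p under 0.05. Leaving out Stat5ca array 10 also left 0 called by limma (4 at an unadjusted p under 0.05), array 9 or control array 30 left Egr2 alone, array 1, 4, 11 or 14 left Egr2 and Nr4a3, and array 3, 12 or 32 lost Egr3. Among other immediate-early genes 1 of 23 was more positive, Dusp2 (1.40 ± 0.30), and 5 were more negative, led by Jun (−2.85 ± 0.27), Zfp36 (−1.70 ± 0.51) and Dusp1 (−1.59 ± 0.41). After averaging, 0 were more positive (limma; 1 at an unadjusted p under 0.05) and 1 more negative. The balance turned with 1 array: 3 and 1 were more positive and more negative without Stat5ca array 9 and also without control array 32. With RNA integrity as a covariate the counts were 2 and 1. Of EGR partners and targets 5 were more positive, with Tnfrsf9 at 2.49 ± 0.19, and 1 more negative, or 2 and 1 without array 10 and 2 and 0 averaged (limma; 2 more negative at an unadjusted p under 0.05). Of NR4A-linked genes Pdcd1 (2.36 ± 0.50) and Batf (0.61 ± 0.17) were more positive and Klf2 (−1.55 ± 0.30) and Foxp3 (−1.08 ± 0.15) more negative, or 1 and 2 after quantile normalization, averaged, and without array 9 or 10.

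Stat5ca cells after transfer were also compared with Stat5ca cells at 72 h. Nr4a1 rose by 2.71 ± 0.47 (SE, 6.54-fold, adjusted p = 7.00e-04), Ier2 by 1.20 ± 0.23 (2.30-fold, adjusted p = 0.00178) and Nr4a3 by 1.16 ± 0.33 (2.23-fold, adjusted p = 0.0199), so that 3 were higher and 0 lower, where 21.3% of all genes were called, 8.61% higher and 12.7% lower. All transferred Stat5ca arrays were above both arrays of 72 h for these genes and for Nr4a2 (1.16 ± 0.42, adjusted p = 0.0621). Egr1 (0.58 ± 0.37), Egr2 (0.49 ± 0.19), Egr3 (0.06 ± 0.13) and Ier3 (0.38 ± 0.39) were not called.

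Without array 13 Egr1 (0.92), Egr2 (0.62) and Nr4a2 (1.33) were called too, which made 6. Nr4a3 was lost without array 9, 10 or 11 (adjusted p = 0.110, 0.125 and 0.0524) and with near-identical arrays averaged (adjusted p = 0.201). With the myeloid covariate Ier2 alone was called, and Nr4a1 was at 1.33 (adjusted p = 0.0624). Of the other immediate-early genes 18 of 23 were higher and 0 lower, with Fosb at 3.06 ± 0.39 and Klf6 at 2.00 ± 0.12. EGR partners and targets had 3 higher and 7 lower, with Lag3 at −3.16 ± 0.23, and NR4A-linked genes had 2 higher and 8 lower, with Ctla4 at −2.40 ± 0.29.

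T-BetKO Stat5ca cells were set against T-bet-sufficient Stat5ca cells, both after transfer. Tbx21, the targeted gene, read 8.18, 8.19 and 8.34 on the T-BetKO arrays, 11.77, 11.77, 11.97 and 11.81 on the T-bet-sufficient Stat5ca arrays and 8.10, 8.63, 8.63 and 8.81 in naive cells. Egr2 was higher in the T-BetKO cells by 1.86 ± 0.29 (SE, 3.62-fold, adjusted p = 5.40e-04) and Egr3 by 0.59 ± 0.11 (1.51-fold, adjusted p = 0.00197), the only ones of the 8 called by limma, where 20.8% of all genes were called, 7.03% higher and 13.8% lower. No arrays overlapped for either gene, and the T-BetKO day 54 array was the lowest of its group for Egr2 (9.53). Nr4a2 (0.56 ± 0.35, adjusted p = 0.294) and Nr4a3 (0.72 ± 0.29, adjusted p = 0.0963) were above every T-bet-sufficient array but not called. Nr4a1 (0.37 ± 0.39), Egr1 (0.61 ± 0.31) and Ier3 (0.31 ± 0.41) were not called. Nor was Ier2 (−0.45 ± 0.20), the 1 gene that was lower at an unadjusted p under 0.05.

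With T-BetKO arrays 39 and 40 averaged, along with the other near-identical arrays, Egr2 was at 1.74 (adjusted p = 0.0740) and Egr3 at 0.67 (adjusted p = 0.0533), neither called. Without Stat5ca array 13 Ier2 was called lower (−0.60, adjusted p = 0.0423). The T-bet genotype cannot be told apart from the strain label, the stimulus, the labelling protocol and the day of recovery, which differ with it. Stat5a was lower in the T-BetKO cells (−0.75 ± 0.11, adjusted p = 3.30e-04), RNA integrity numbers were 7, 6 and 8 on T-BetKO arrays against 8 or 9 on Stat5ca arrays, and myeloid markers were higher on arrays 39 and 40. With the myeloid covariate Egr2 was at 1.75 (adjusted p = 0.00191) and Egr3 at 0.56 (adjusted p = 0.00787).

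Of the other immediate-early genes 3 of 23 were higher in T-BetKO cells, with Klf4 at 1.42 ± 0.26 and Atf3 at 1.31 ± 0.39, and 1 was lower, Dusp2 (−0.63 ± 0.19). After averaging, 0 were called by limma in either direction, with 3 higher at an unadjusted p under 0.05. With RNA integrity as a covariate, which was lower on average in the T-BetKO group, 0 were called by limma (2 higher and 1 lower at an unadjusted p under 0.05). The number higher was 1 with the myeloid covariate and without array 13, 39 or 40. Of EGR partners and targets 5 were higher, with Lag3 at 1.24 ± 0.27, and 2 lower, Fasl (−1.45 ± 0.34) and Crtam (−1.34 ± 0.27). None of that list was called by limma with RNA integrity as a covariate (4 higher and 1 lower at an unadjusted p under 0.05) or averaged (4 and 2). Of NR4A-linked genes 5 were higher and 0 lower, with Foxp3 at 1.79 ± 0.19, Pdcd1 at 1.40 ± 0.31 and Ctla4 at 1.33 ± 0.24; the number higher was 1 averaged and 2 with RNA integrity. Of upstream genes 0 were higher and 4 lower, with Plcg1 at −0.59 ± 0.15. None was called by limma without array 40 (5 lower at an unadjusted p under 0.05), with RNA integrity (3) or averaged (3). The number lower was 1 without array 13 or 39 and after quantile normalization, 2 without array 12 and with the myeloid covariate, and 7 without array 41.

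As a description of pattern, the genes most like Egr1 and Nr4a1 over the 19 arrays were taken by Pearson's r among 13838 genes above background in a group. For Egr1 they were Nfil3 (r = 0.853), Med11, Ripk3, Ccrl2 and Gla. For Nr4a1 they were Ifrd1 (r = 0.907), Tmem109, Coq10b, Slc3a2 and Pmaip1. The arrays share groups, near-identical pairs and myeloid signal, so these values describe the arrays and carry no p.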

How the data were processed

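Gene expression was measured on 19 Affymetrix mouse arrays of purified CD8 T lymphocytes. The values deposited for each array are log2 signals (35557 probe sets, range 3.13 to 14.94, array medians 7.69 to 7.89) and were used as deposited. Per the submitters' processing notes they were made with Affymetrix Expression Console; neither its version nor the summarization and normalization it applied is given in the sources used here. The log2 scale was inferred from the values' range. For arrays, their number limits the precision.

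Each gene was read by the brightest probe set, by mean over all arrays, among those with its symbol alone (21789 probe sets with 1 gene, 1621 with several, 12147 with none; 19938 genes). Each of the 8 genes had 1 such probe set. limma 3.58.1 in R 4.3.3 (lmFit, eBayes with a constant prior variance) was fitted to all genes without covariates. The 16 arrays labelled TCRP1A were in 1 fit for 8 comparisons, and all 19 arrays were used for the T-BetKO comparison. Calls were made at an adjusted p under 0.05 (Benjamini-Hochberg over all genes of a comparison). No pairing was used.

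The genes, lists and tests were chosen with earlier results of these data known. The text names the 8 genes, up to 4 called genes of each of 5 lists with the largest differences (other immediate-early genes, EGR partners and targets, NR4A-linked genes, upstream signalling, heat-shock genes; 75 of 82 entries measured), Stat5a, Stat5b and Tbx21, and the 5 genes most like Egr1 and Nr4a1. The lists were chosen from general knowledge, and their counts carry no test.

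Alternatives were quantile normalization, centring on medians, a filter on genes under background, the mean of probe sets, other sets of arrays in the fit, an intensity-dependent robust prior, RNA integrity or the myeloid marker mean as a covariate, and leaving out arrays. Averaging arrays whose differences had an SD under 0.2 was added after the data were seen. The myeloid covariate had 1 slope for all groups, and within groups its signal varied most among naive arrays. The calls were also tested on simulated data: for Stat5ca against control after transfer, with 19938 genes, 56.0% of changes of 0.5 and 88.0% of changes of 1 were called. The simulated arrays varied independently, 200 genes were changed, and near-identical arrays and shared myeloid shifts were absent. These shares therefore do not give the power of the real comparison. Python 3.11.15, pandas 2.3.3, numpy 2.4.6 and matplotlib 3.10.9 were used otherwise.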

Additional observations from a re-analysis of the deposited data

Results flagged for a closer look

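In transferred Stat5ca cells, array 13 stood apart from arrays 11, 12 and 14. It read 9.87 for Egr1, 11.60 for Nr4a1 and 9.81 for Ier2, each further below the other arrays than Dixon's 95% limit allows. Chance alone exceeds that limit in about 1 in 20 groups of independent arrays. Arrays 11, 12 and 14 were nearly alike over all genes (SD of differences under 0.2), so that rate does not hold for this group. The flags therefore cannot tell how often chance would set array 13 apart. Of 24 sets of values tested in groups of 4 arrays, these 3 passed, all on the same array. That array also had the lowest myeloid markers of its group (9.52, against up to 10.40); the part of either in the other was not tested.

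The effect of Stat5ca differed between transferred cells and cells at 72 h for 4 genes, by a test of the difference itself. The difference was 1.16 for Egr2, 0.58 for Egr3, 1.98 for Nr4a2 and 1.66 for Nr4a3. The control arrays in it differ in day (18 and 120), and the myeloid marker mean was 12.23 to 12.34 in control and 9.52 to 10.40 in Stat5ca cells after transfer. With the myeloid covariate the difference stayed called for all 4. That covariate has 1 slope for all groups, and its signal varied most among naive arrays (7.79 to 11.67), which are not in the difference. The part of myeloid signal within the groups of the difference alone was not tested.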

How the results depend on the processing

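Over 9 comparisons the 8 genes gave 1135 values under alternatives with the same direction and side of the threshold, 126 that lost a call, 19 that gained one and 24 that changed sign. No paired analysis was possible because the numbers in the labels are unique to each array and no group shares them. For all genes, averaging near-identical arrays moved the number called most, from 1140 to 65 for Stat5ca against control at 72 h and from 4155 to 183 for T-BetKO.

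The number of the 8 genes called, which was 6 for transferred control against naive cells, became 1 with only the groups compared, 2 with RNA integrity as a covariate, 1 with the myeloid covariate and 2 with averaged arrays. The 4 calls of transferred control cells against 72 h became 2 after quantile normalization, 2 with RNA integrity, 1 with the myeloid covariate and 1 averaged. The 2 calls of Stat5ca against control after transfer became 1 with all 19 arrays, 1 with RNA integrity, 0 with the myeloid covariate (limma; 5 at an unadjusted p under 0.05) and 1 averaged. The 3 calls of Stat5ca cells after transfer against 72 h became 1 with the myeloid covariate. The 4 differences between Stat5ca effects became 2 after quantile normalization and 0 averaged (limma; 4 unadjusted), and the 2 T-BetKO calls became 0 averaged (3 unadjusted).

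Leaving out 1 array at a time gave 5 to 6 calls for control at 72 h against naive, 2 in every case for Stat5ca at 72 h, 0 to 7 for transferred control against naive, 0 to 4 for transferred control against 72 h, 5 to 6 for transferred Stat5ca against naive, 1 to 3 for Stat5ca against control after transfer, 2 to 6 for Stat5ca after transfer against 72 h, 0 to 4 for the difference of effects and 2 to 3 for T-BetKO.

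Signs changed mostly where the difference was small. For Stat5ca at 72 h Ier2 became −0.014 centred, −0.023 with RNA integrity, −0.13 without control array 1, −0.10 without control array 4 and −0.17 without array 9, and Egr1 became 0.015 without array 10. For transferred control against 72 h, Egr1 became −0.039 and Nr4a1, which was called, −0.21 with the myeloid covariate, and Nr4a2 became 0.023 and Nr4a3 0.23 without array 30. For transferred Stat5ca against naive, Egr2 became −0.061 without naive arrays 34 and 36 and −0.097 averaged. For Stat5ca against control after transfer, Egr1 became 0.013 with the myeloid covariate, 0.01 without array 30 and 0.17 without array 13, Nr4a1 became −0.15 averaged and Nr4a3 −0.0039 without array 30. For Stat5ca after transfer against 72 h, Egr3 became −0.048 and Ier3 −0.071 with the myeloid covariate, and Egr3 became −0.0023 averaged. For the difference of effects, Egr1 became −0.063 averaged and −0.18 without array 10. For T-BetKO, Nr4a1 became −0.19 and Ier3 −0.048 with the myeloid covariate. The heat-shock gene Hspa1a, at 2.55 for transferred control against 72 h, became −0.61 with the myeloid covariate. Many counts of the other gene lists that moved by more than 1.5 times are given beside each list. Heat-shock counts were not given for some comparisons and moved too. For Stat5ca against control after transfer 4 of 8 were higher, and 1 averaged. For Stat5ca after transfer against 72 h 3 were higher, 6 with only the groups compared and 1 averaged. For the difference of effects 4 were more positive, and 2 averaged. For T-BetKO 1 was higher and 1 lower, and 0 were called by limma averaged (1 lower at an unadjusted p under 0.05). Where leaving out 1 array turned a sign, the values ran from −0.90 to 0.015 (Egr1, Stat5ca at 72 h), −1.67 to 0.023 (Nr4a2) and −1.22 to 0.23 (Nr4a3, transferred control against 72 h), −0.34 to 0.17 (Egr1) and −0.0039 to 1.44 (Nr4a3, Stat5ca against control after transfer), and −0.18 to 0.73 (Egr1, difference of effects). The cause was not tested in any of these.

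The counts over all genes that moved by more than 1.5 times were as follows. Control at 72 h against naive had 9334 and 5305 averaged. Stat5ca at 72 h had 1140, and 591, 616 and 1794 without control arrays 1, 4 and 3, and 463 and 98 without arrays 9 and 10. Transferred control against naive had 3538, 323 with only the groups compared, 707 under the myeloid covariate, 5767 without naive arrays 34 and 36, and 1586 and 840 without arrays 30 and 32. Transferred control against 72 h had 7476 and 3595 with the myeloid covariate. Transferred Stat5ca against naive had 5697 and 2504 averaged. Stat5ca against control after transfer had 5058, 3124 with the myeloid covariate, 2870 averaged, and 3032 and 2716 without arrays 30 and 32. Stat5ca after transfer against 72 h had 4243, 2483 averaged, and 2574 and 2144 without arrays 9 and 10. The difference of effects had 3549, 1487 averaged, and 2330, 1985 and 2225 without arrays 9, 10 and 32. T-BetKO had 4155, 1379 with RNA integrity, and 2614 and 1790 without arrays 39 and 40.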
